A study of Capsicum annuum with 78 samples.

Results

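The comparison described here set leaves of pepper (Capsicum annuum cv. Bukang) sampled 12 h after spraying with methyl jasmonate (MeJA) against leaves sampled 12 h after spraying with water (mock). Its members were 6 of the 78 RNA-seq libraries of the series, chosen by their titles, with 3 libraries in each group, and the comparison ran over all genes of the count table. The MeJA plants received 100 μM methyl jasmonate and the mock plants distilled water, both at the 6-true-leaf stage, and each library was made from the third leaf or the next one up of 4 plants pooled. The cultivar, a plant age of 6 weeks and the cycle of 16 h light and 8 h dark were common to both groups. Further libraries used below came from MeJA and mock leaves at 1, 3, 6 and 24 h, and from leaves 12 h after 100 μM abscisic acid (ABA), 5 mM sodium salicylate (SA) or 5 mM ethephon (ET), which releases ethylene. Each treatment was incubated in a chamber run of its own, so a difference between treatments and a difference between incubations cannot be told apart.

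Methyl jasmonate is the volatile ester of jasmonic acid, the hormone that plants make from membrane lipids after wounding and feeding by insects. Inside the leaf the ester is turned into jasmonic acid and then into its isoleucine conjugate, which binds the receptor COI1 and leads to the removal of JAZ repressor proteins, and this frees transcription factors such as MYC2. In leaves of the nightshade family, to which pepper belongs, the hormone is best known for switching on proteinase inhibitors and other defence proteins and for slowing growth. The genes of the table are given only as identifiers of the CM334 annotation v.1.6, and none of the 35884 (0 matches) occurred in the RefSeq list used for names, which describes a different pepper assembly. Members of these pathways could therefore not be picked out, leaf markers could not be read, and gene copies with almost the same sequence could not be recognised. Identifiers are given for 2 rising and 2 falling genes, those with the largest changes by a fixed rule.

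The MeJA libraries held 5831468, 5426704 and 6005194 counts, and the mock libraries 7755093, 6625073 and 7327460 counts. All 3 MeJA libraries were thus shallower than every mock library. The floor of 3 counts lay at 0.5 to 0.553 CPM (counts scaled to the library total) in the MeJA libraries and at 0.387 to 0.453 CPM in the mock libraries, and it covers counting error only. A total of 11423 genes had no count in any of the 6 libraries. MeJA library 2 stood apart from its group. Its root mean square difference on the log2 scale, over all genes tested, was 0.419 from MeJA library 1 and 0.462 from MeJA library 3, whereas those libraries differed by 0.324 from each other and the mock libraries by 0.33 to 0.344 among themselves. It also lay farther from mock (0.674 to 0.713) than MeJA libraries 1 and 3 did (0.489 to 0.538). The main counts are therefore also given without MeJA library 2.

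At 12 h, 4294 of 18349 genes tested (23.4%) differed between MeJA and mock leaves, 2226 higher (12.1%) and 2068 lower (11.3%) after MeJA (quasi-likelihood test of edgeR, Benjamini-Hochberg adjusted p under 0.05). Higher and lower genes were close in number, but large changes went mostly upward. At least 2-fold higher were 877 genes (4.78% of those tested) and at least 2-fold lower were 428 (2.33%), together 1305 genes (7.11%), with 2.05 raised genes for each lowered one. Between 2-fold and 4-fold, 639 genes were higher and 365 lower. Between 4-fold and 8-fold the numbers were 172 and 52, and above 8-fold they were 66 and 11. Below 1.5-fold the order was the other way, with 605 genes higher and 818 lower. The median log2 fold change was 1.49 over the 877 raised genes and -1.33 over the 428 lowered genes, beside 0.0086 over all genes tested. Without MeJA library 2, 2630 genes differed and 820 passed the 2-fold threshold, 528 of them higher and 292 lower. Of the 1305 genes that passed it with all libraries, 766 (58.7%) passed it again in the same direction.

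**Figure D1:**
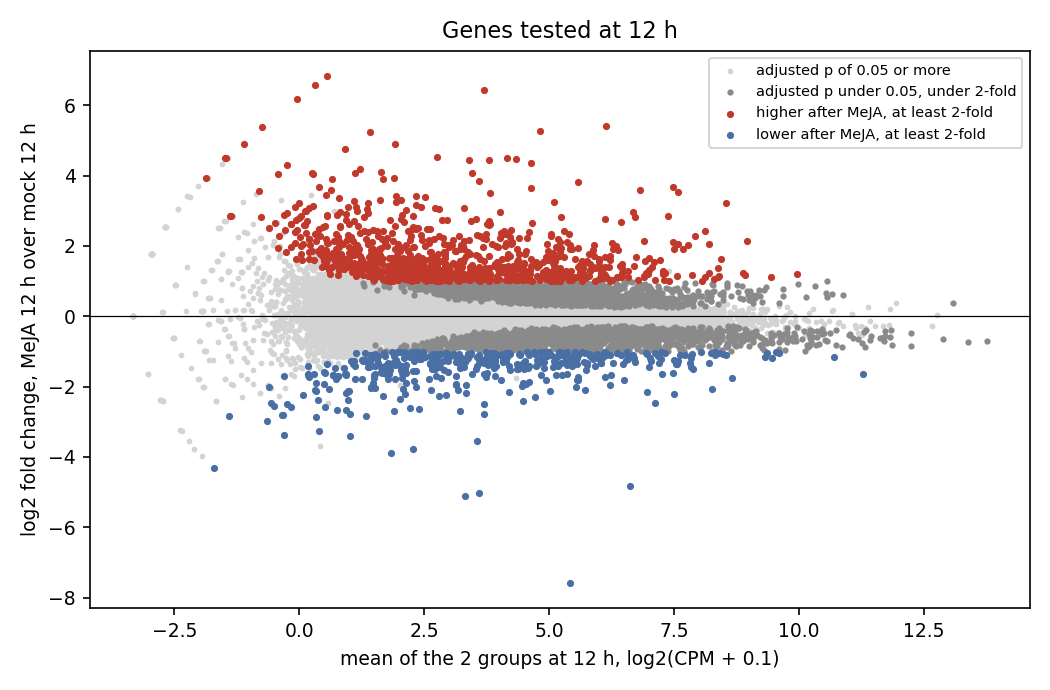
Log2 fold change of each gene tested, MeJA 12 h over mock 12 h, against the mean of both groups at 12 h on the log2(CPM + 0.1) scale. Red points are the 877 genes at least 2-fold higher and blue points the 428 at least 2-fold lower (adjusted p under 0.05), dark grey points passed the adjusted p with a smaller change, and light grey points did not pass.

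The share of genes raised at least 2-fold was highest where counts were low. Among the 1210 genes with a mean under 10 counts, 112 were raised and 30 lowered at least 2-fold (9.26% and 2.48%). Among genes with a mean of 10 to 100 counts over the 6 libraries, 494 were raised and 209 lowered at least 2-fold, which is 6.48% and 2.74% of them. Among genes with 100 to 1000 counts it was 244 and 155 (2.88% and 1.83%). Among the 1042 genes with 1000 counts and over it was 27 and 34 (2.59% and 3.26%). Smaller changes could be called where counts were high. The test called 11.7% of the genes with a mean under 10 counts, 16.3% of those with 10 to 100, 28.3% of those with 100 to 1000 and 48.7% of those with more. The median size of a called change was 2.28 log2 units in the first of these classes and 0.59 in the last, so a change of less than 2-fold was rarely detectable in genes with the fewest counts. Counts depend on gene length as well as on transcript number, and lengths were not at hand, so these classes describe counting precision and not expression.

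Together the raised genes took 2.9%, 5.09% and 2.87% of all counts in the MeJA libraries, against 0.997%, 1.15% and 1.23% in the mock libraries. MeJA library 2 was the high one, and the groups did not overlap. The lowered genes took 1.53%, 1.13% and 1.55% of the counts in the MeJA libraries, against 3.17%, 3.07% and 3.24% in mock. Here MeJA library 2 was the lowest of the 6. These sums follow from the way the genes were chosen and are given as a description. Gene by gene, the libraries were compared after TMM scaling (trimmed mean of M-values, a correction of library size for composition). All 3 MeJA libraries lay above all 3 mock libraries or below them for 815 of the 877 raised genes (92.9%). The same held for 414 of the 428 lowered genes (96.7%), beside 38.2% of all genes tested. These same 6 libraries chose the genes, which favours such a separation, so these shares are a description too.

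MeJA library 2 was the highest of its group in 691 of the 877 raised genes (78.8%), beside 37.2% of all genes tested. For the lowered genes it was the lowest of its group in 293 of 428 (68.5%), beside 40.1% of all genes tested. Library 2 took part in the choice of these genes, which favours genes in which it lay far from mock. When this library was left out of the fit, 528 genes were called at least 2-fold higher after MeJA, and the left-out library lay above all 3 mock libraries for 514 of them (97.3%). On the log2(TMM-scaled CPM + 1) scale the median difference from mock of these genes was 1.55 in the left-out library and 1.15 in MeJA libraries 1 and 3. For the 292 genes called at least 2-fold lower it was -1.35 and -1.13. Over the genes chosen without it, library 2 thus differed from mock in the same direction as the other MeJA libraries and by more. Leaving out each of the 3 MeJA libraries in the same way, the left-out library was above all mock libraries for 89.4% to 97.3% of the raised genes and below them for 94.2% to 95.6% of the lowered genes. The mock libraries were the same in the choice of the genes and in this reading of them. The matching share over all genes tested was not computed, so these percentages have no background beside them. What set MeJA library 2 apart was not tested. Its depth, at 5426704 counts, was the lowest of the 6.

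**Figure D2:**
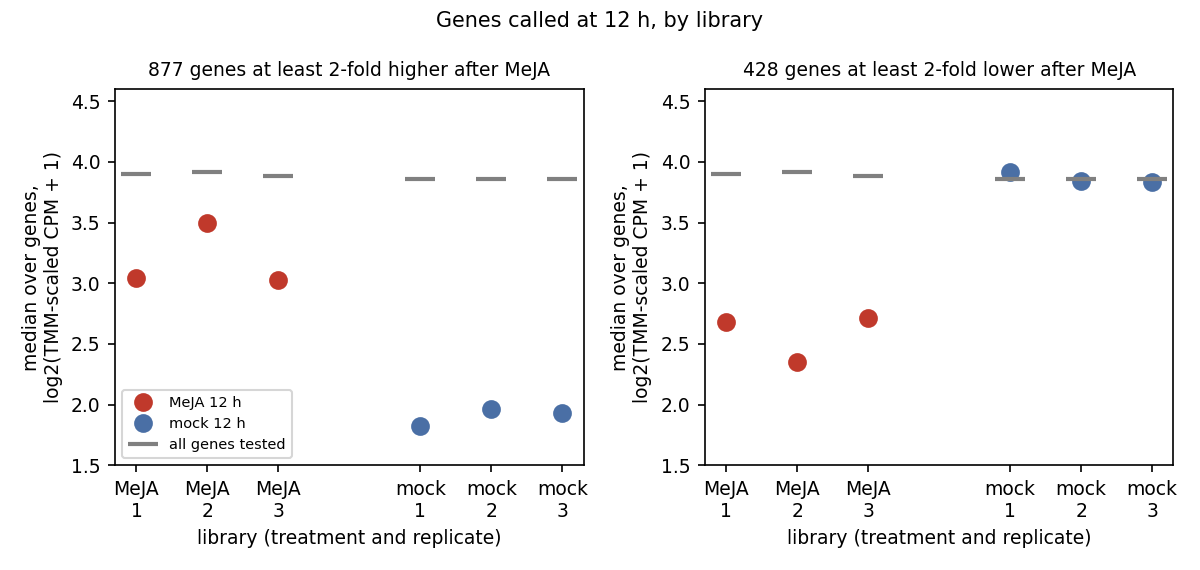
Median level of the 877 raised genes (left) and of the 428 lowered genes (right) in each of the 6 libraries of 12 h, on the log2(TMM-scaled CPM + 1) scale, with the median of all genes tested as grey bars. MeJA libraries 1 to 3 sit at 3.04, 3.5 and 3.03 and the mock libraries at 1.82, 1.96 and 1.93 on the left, while on the right MeJA sits at 2.68, 2.35 and 2.71 and mock at 3.92, 3.84 and 3.83.

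No gene had counts in 1 group alone at the minimum set. With 0 counts in all 3 mock libraries and at least 10 counts in every MeJA library there were 0 genes, and 0 genes in the opposite direction. With a minimum of 3 counts in every library there were 6 genes with counts in MeJA leaves only and 4 with counts in mock leaves only.

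Single genes were named by the size of their fold change among those with no overlap between the groups and a mean of at least 10 CPM in the higher group. The largest rise by this rule belonged to CA.PGAv.1.6.scaffold1045.47, whose product is unknown here. It had 9.6, 59.7 and 6.99 CPM in the MeJA libraries, against 0.129, 0.302 and 0.273 CPM in the mock libraries. The groups were far apart, and MeJA library 2 was several times above the other MeJA libraries. The fitted log2 fold change was 6.44 ± 0.79 (SE, n = 3 each, adjusted p = 2.89e-07, edgeR), and 4.94 without MeJA library 2. The spread behind this SE and adjusted p was estimated over all 30 MeJA and mock libraries of the joint fit. In the 6 libraries of 12 h alone the adjusted p was 0.00168 (edgeR). The mock side rests on 5 counts in all, against 422 in MeJA leaves, and the ratio of the CPM of both groups, from pooled counts, was 106 (exact 95% interval from counting error alone, 45.1 to 329). This gene was not low in mock leaves at all times. At 24 h it had 230, 281 and 222 CPM in MeJA leaves, against 53.1, 23.3 and 75.2 CPM in mock leaves, where the log2 fold change was 2.26 ± 0.35 (SE, adjusted p = 4.35e-05, edgeR). At 3 h it had 4.5, 3.87 and 3.57 CPM in MeJA leaves, against 0.649, 0.501 and 0.391 CPM in mock leaves (log2 fold change 2.85 ± 0.98, SE, adjusted p = 0.0403, edgeR). At 6 h both groups were low, with 0.786 to 1.31 CPM after MeJA and 1.13 to 1.44 CPM in mock, and the difference did not pass the test (log2 fold change -0.41 ± 1.01, SE, adjusted p = 0.859).

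The second rise was that of CA.PGAv.1.6.scaffold1628.3, with 55.6, 323 and 32.8 CPM in the MeJA libraries, against 2.45, 2.26 and 3.55 CPM in the mock libraries. MeJA library 2 was again the highest. The log2 fold change was 5.40 ± 0.67 (SE, n = 3 each, adjusted p = 3.39e-07, edgeR), and 3.89 without MeJA library 2. In MeJA leaves the range was 198 to 241 CPM for 1 h, 55.4 to 133 CPM for 3 h, 16.7 to 30.5 CPM for 6 h, 32.8 to 323 CPM for 12 h and 20.8 to 74.2 CPM for 24 h. In mock leaves this gene passed through a low at 12 h. The 1 h mock libraries had 154, 171 and 164 CPM, those of 3 h 82.1 to 118 CPM, those of 6 h 9.93 to 12.3 CPM, those of 12 h 2.26 to 3.55 CPM and those of 24 h 44.7 to 146 CPM. The MeJA level at 12 h thus lay within the span of mock levels at other times apart from library 2, while the mock leaves were at the low of their course. At 1, 3, 6 and 24 h the difference between MeJA and mock did not pass the test, with log2 fold changes between -1.06 and 1.07 and adjusted p between 0.179 and 0.685 (edgeR).

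Both of the largest falls by the same rule were led by 1 mock library. CA.PGAv.1.6.scaffold895.36 had 0, 0.553 and 0.833 CPM in the MeJA libraries, against 22.2, 12.5 and 221 CPM in the mock libraries. Mock library 3 was the high one, and it held 1623 of the 1878 counts in mock. The log2 fold change was -7.57 ± 0.95 (SE, n = 3 each, adjusted p = 4.03e-07, edgeR), and -5.33 without mock library 3. The ratio of mock to MeJA CPM, from pooled counts, was 187 (exact 95% interval from counting error alone, 94.6 to 433). CA.PGAv.1.6.scaffold1186.22 had 0.171, 0.737 and 0.833 CPM in the MeJA libraries, against 5.03, 3.17 and 49.5 CPM in the mock libraries. Mock library 3 was again the highest. The log2 fold change was -5.12 ± 0.82 (SE, n = 3 each, adjusted p = 2.04e-05, edgeR), and -2.95 without mock library 3. In MeJA leaves at the other times the first gene had 0.157 to 3.38 CPM and the second 0 to 2.41 CPM, with the highest values at 3 h. In mock leaves the first had 2.97 to 7.16 CPM at 1 h, 0 to 0.334 CPM at 3 h, 0 to 0.124 CPM at 6 h and 0.59 to 9.19 CPM at 24 h, so its level at 12 h was the highest of its course. The second had 0 to 3.72 CPM in mock leaves at those times, and 3.17 to 49.5 CPM at 12 h. At none of these 4 times did either gene pass the test (adjusted p between 0.102 and 0.623, edgeR).

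**Figure D3:**
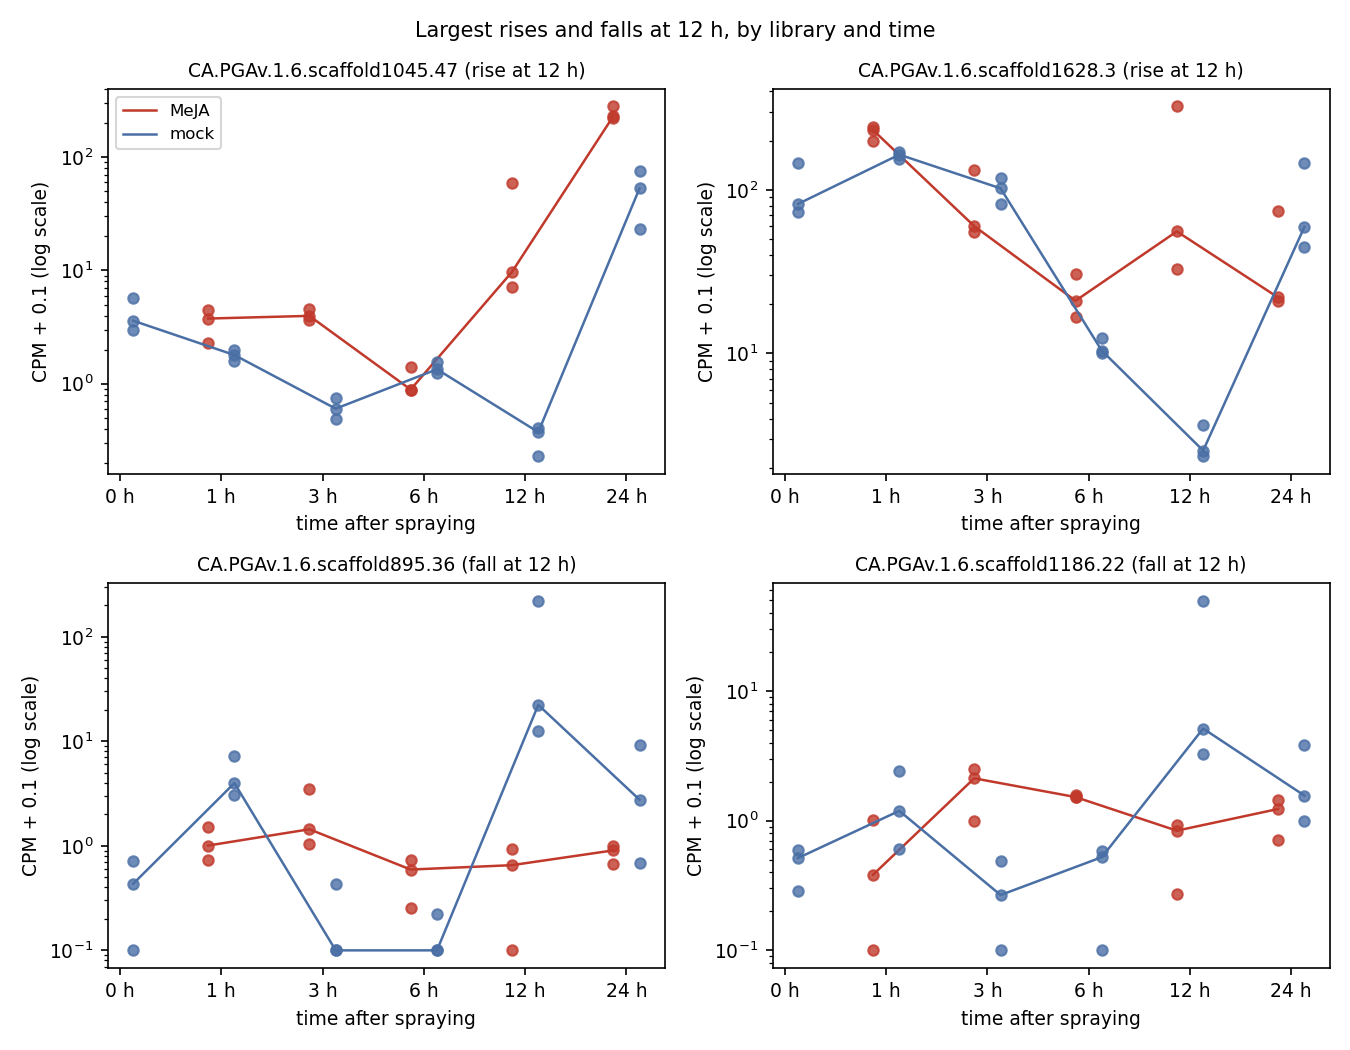
CPM + 0.1 on a log axis for the genes with the 2 largest rises (top) and the 2 largest falls (bottom) at 12 h, in every MeJA (red) and mock (blue) library at each time after spraying, with lines through the medians of 3 libraries (0 h is mock only). At 12 h the groups are apart in all 4 panels, with MeJA library 2 above its group at the top (59.7 and 323 CPM) and mock library 3 above its group at the bottom (221 and 49.5 CPM).

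The other hormones were sampled at the same time and share the mock libraries with MeJA, so their levels are given side by side. CA.PGAv.1.6.scaffold1045.47, at 6.99 to 59.7 CPM after MeJA, had 2.44 to 3.62 CPM after ABA, 7.44 to 9.74 CPM after SA and 2.06 to 3.06 CPM after ET. Directly tested, it was higher after MeJA than after ABA (log2 difference 3.02 ± 0.54, adjusted p = 0.000265), SA (1.47 ± 0.49, adjusted p = 0.0275) and ET (3.20 ± 0.56, adjusted p = 0.000113; SE, edgeR), although MeJA libraries 1 and 3 lay within or below the range of SA. CA.PGAv.1.6.scaffold1628.3 had 1.89 to 4.16 CPM after ABA, close to mock, 5.4 to 15.5 CPM after SA and 104 to 279 CPM after ET, against which MeJA did not pass the test (log2 difference -0.78 ± 0.50, SE, adjusted p = 0.212, edgeR). Both falling genes were low after every hormone at 12 h. CA.PGAv.1.6.scaffold895.36 had 0 CPM in all ABA libraries, 0 to 0.455 CPM after SA and 0.585 to 4.08 CPM after ET. CA.PGAv.1.6.scaffold1186.22 had 0 to 0.226 CPM after ABA, 0 to 0.579 CPM after SA and 0.589 to 1.53 CPM after ET. Their high level at 12 h was found in the mock libraries only, among the 15 libraries of that time.

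Over all genes, MeJA leaves at 12 h differed directly from ABA leaves in 6306 of 18557 genes tested (34%), from SA leaves in 6066 (32.7%) and from ET leaves in 9010 (48.6%; edgeR, adjusted p under 0.05). At least 2-fold higher after MeJA than after ABA were 961 genes (5.18%) and at least 2-fold lower 920 (4.96%). Against SA it was 806 (4.34%) and 1092 (5.88%), and against ET 1839 (9.91%) and 1444 (7.78%). Whatever the size of the change, 3103 genes (16.7%) were higher and 3203 (17.3%) lower after MeJA than after ABA, 2674 (14.4%) higher and 3392 (18.3%) lower than after SA, and 4538 (24.5%) higher and 4472 (24.1%) lower than after ET. With MeJA library 2 left out, the 2-fold balance with ABA turned, to 700 genes higher and 932 lower after MeJA, and with no filter on low counts it was 990 higher and 1026 lower. Against SA it was 688 higher and 1146 lower without MeJA library 2, but 499 and 492 where every library had at least 10 counts, and against ET 1795 higher and 1645 lower without that library. At any size of change, without that library, 2520 genes were higher and 2789 lower after MeJA than after ABA, 2678 and 3100 than after SA, and 4336 and 4516 than after ET, where the order turned.

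The level of the gene sets was also followed from 1 to 24 h. Their values at 12 h follow in part from the choice of the genes, which used the libraries of that time. On the log2(TMM-scaled CPM + 1) scale, the median of the 877 raised genes in MeJA leaves was 3.08 ± 0.04 (SD, n = 3) for 1 h, 3.07 ± 0.10 for 3 h, 2.67 ± 0.06 for 6 h, 3.19 ± 0.27 for 12 h and 3.57 ± 0.07 for 24 h. In mock leaves it was 2.90 ± 0.01 for 1 h, 2.64 ± 0.08 for 3 h, 2.58 ± 0.06 for 6 h, 1.90 ± 0.07 for 12 h and 3.03 ± 0.24 for 24 h. At 12 h the mock leaves were at the low of their course for these genes, and the MeJA leaves were not. The median of the 428 lowered genes in MeJA leaves was 3.0 ± 0.09 (SD, n = 3) for 1 h, 2.92 ± 0.06 for 3 h, 3.06 ± 0.09 for 6 h, 2.58 ± 0.20 for 12 h and 2.52 ± 0.12 for 24 h. In mock leaves it was 2.89 ± 0.03 for 1 h, 3.06 ± 0.13 for 3 h, 3.45 ± 0.02 for 6 h, 3.86 ± 0.05 for 12 h and 3.09 ± 0.13 for 24 h. So the lowered genes peaked at 12 h in mock leaves and were near their lowest level in MeJA leaves. Over all genes tested, the mean of the 3 library medians lay between 3.81 and 3.90 in every group.

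Gene by gene, the mean of the mock leaves at 12 h lay below their means at 1, 3, 6 and 24 h for 507 of the 877 raised genes (57.8%), beside 22.5% of all genes tested. The MeJA mean at 12 h was above every mock mean of the other times for 344 of them (39.2%, beside 25.6% of all genes) and within their range for 461 (52.6%, close to the 53.7% of all genes). Without MeJA library 2 it was above for 253 (28.8%, beside 24.4%) and within for 521 (59.4%, beside 54.7%). Among the 428 lowered genes, the mock mean at 12 h was the highest of the mock course from 1 to 24 h for 238 (55.6%, beside 26.9% of all genes). The MeJA mean lay below all mock means of the other times for 191 (44.6%, beside 20.7%). The mock libraries of 0 h were not used in these counts. The mock libraries of 12 h also chose these genes, which favours a low mock level for raised genes and a high one for lowered genes, so these counts are a description with no test. The hour of the light cycle at which the leaves were taken is not given in the sources used here.

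**Figure D4:**
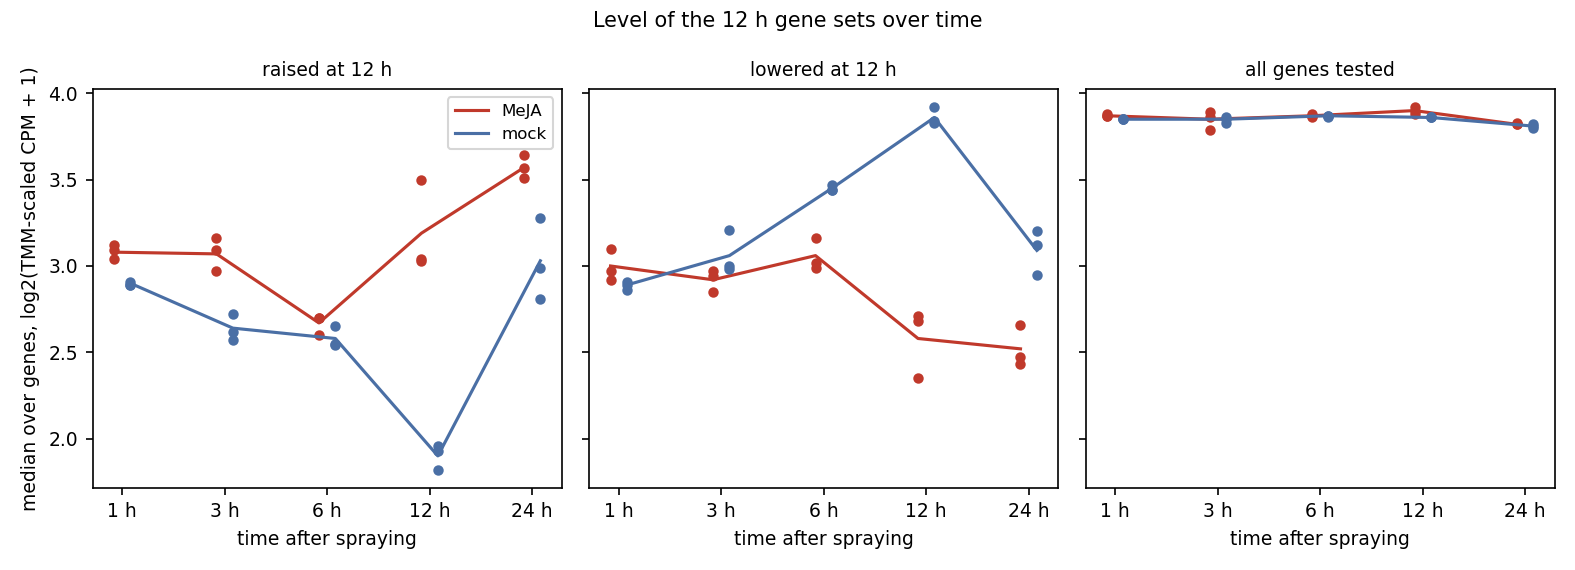
Median level, on the log2(TMM-scaled CPM + 1) scale, of the 877 genes raised at 12 h, the 428 lowered at 12 h and all genes tested, in each MeJA (red) and mock (blue) library from 1 to 24 h, with lines through the means of 3 libraries. As group means, the raised genes fall to 1.90 in mock leaves at 12 h against 3.19 in MeJA leaves, and the lowered genes reach 3.86 against 2.58. The group means over all genes stay between 3.81 and 3.90, and single libraries between 3.79 and 3.92.

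The libraries of the other times are not in the contrast of 12 h, but in the joint fit they shared its filter, scaling and estimate of spread. At 24 h, 231 of the 877 raised genes were also higher after MeJA (26.3%), beside 5.52% of all genes tested, and 13 were lower (1.48%, beside 6.43%). Of the 428 lowered genes, 126 were also lower at 24 h (29.4%, beside 6.43%) and 10 were higher (2.34%, beside 5.52%). The median log2 fold change at 24 h was 0.46 over the raised genes and -0.56 over the lowered genes, with 0.0082 over all genes. Mock library 3 of 24 h stood above the others of its group for the raised genes, with a median of 3.28 against 2.99 and 2.81, and without it the shares were 33.4% of the raised genes (beside 6.66% of all genes in that fit) and 33.4% of the lowered genes (beside 8.33%).

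Before 12 h the shares were more mixed. At 6 h, 148 raised genes were higher (16.9%, beside 5.41% of all genes) and 78 lower (8.89%, beside 4.67%), so both directions stood above the share of all genes. Among the lowered genes 83 were lower at 6 h (19.4%, beside 4.67%) and 17 higher (3.97%, beside 5.41%). At 3 h, 224 raised genes were higher (25.5%, beside 9.19%) and 36 lower (4.1%, beside 8.13%), while 80 lowered genes were lower (18.7%, beside 8.13%) and 27 higher (6.31%, beside 9.19%). Without MeJA library 1 of 3 h, whose median over all genes (3.79) was below those of libraries 2 and 3 (3.86 and 3.89), 22.2% of the raised genes (beside 8.32% of all genes in that fit) and 13.6% of the lowered genes (beside 5.69%) were called at 3 h. At 1 h the raised genes were split, 156 higher (17.8%, beside 6.67%) and 96 lower (10.9%, beside 6.03%), with a median log2 fold change of 0.04. The lowered genes at 1 h were lower in 31 cases (7.24%, beside 6.03%) and higher in 49 (11.4%, beside 6.67%), so more of them went against their change of 12 h than with it. When MeJA library 2 of 12 h was left out, the share of the 528 raised genes also higher was 22.3% for 1 h (beside 6.9% of all genes in that fit), 33.7% for 3 h (9.69%), 25.6% for 6 h (5.79%) and 34.3% for 24 h (6.09%). The share of the 292 lowered genes also lower was 8.9% for 1 h (beside 6.62%), 21.2% for 3 h (8.74%), 26.7% for 6 h (5.36%) and 32.5% for 24 h (7.05%). In that fit 13.6% of the raised genes were lower at 1 h (beside 6.62%) and 10.6% at 6 h (beside 5.36%). At 3 h it was 5.11% (beside 8.74%) and at 24 h 1.89% (beside 7.05%). Of the lowered genes, 15.8% were higher at 1 h (beside 6.9%).

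To read the other times with no library in common, genes were also chosen from the 6 libraries of 12 h alone and read in a fit of the other 24 libraries alone, an alternative added after seeing the data. Of 733 genes at least 2-fold higher in the 6 libraries, 719 were tested in that fit, and of 379 at least 2-fold lower, 368 were. The raised genes were also higher in 19.5% of cases for 1 h (beside 7.27% of all genes), 31.2% for 3 h (10%), 20% for 6 h (5.22%) and 31.2% for 24 h (6.14%). The lowered genes were also lower in 8.7% of cases for 1 h (beside 5.95%), 20.4% for 3 h (8.16%), 24.7% for 6 h (5.64%) and 34.8% for 24 h (6.64%). At 1 h, 14.4% of these lowered genes were higher (beside 7.27%), again more than were lower. Of these raised genes, 14.3% were lower at 1 h (beside 5.95%) and 10.7% at 6 h (beside 5.64%), both above the share of all genes. At 3 h it was 5.42% (beside 8.16%) and at 24 h 1.81% (beside 6.64%).

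Over the 4 other times, 425 of the 877 raised genes (48.5%) were called higher at none of them, beside 80.8% of all genes tested. Another 249 were called higher at 1 of them (28.4%, beside 13.5%), 120 at 2 (13.7%, beside 4.08%), 62 at 3 (7.07%, beside 1.32%) and 21 at all 4 (2.39%, beside 0.283%). Of the 428 lowered genes, 218 (50.9%, beside 80.5% of all genes) were called lower at no other time, 128 at 1 (29.9%, beside 14.8%), 57 at 2 (13.3%, beside 3.71%), 22 at 3 (5.14%, beside 0.899%) and 3 at all 4 (0.701%, beside 0.0872%). In the opposite direction at least once were 190 raised genes (21.7%, beside 19.5% of all genes) and 79 lowered genes (18.5%, beside 19.2%), shares close to those of all genes. A missing call at another time does not show that the difference was another one there. When the differences themselves were compared, 1661 genes (9.05% of those tested) differed from mock by another amount at 12 h than at 6 h, 956 of them with the higher value at 12 h and 705 with the lower. Between 12 h and 24 h it was 1252 genes (6.82%), 757 higher and 495 lower at 12 h (edgeR, adjusted p under 0.05). Without MeJA library 2 of 12 h, 1100 genes differed between 12 h and 6 h and 940 between 12 h and 24 h.

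**Figure D5:**
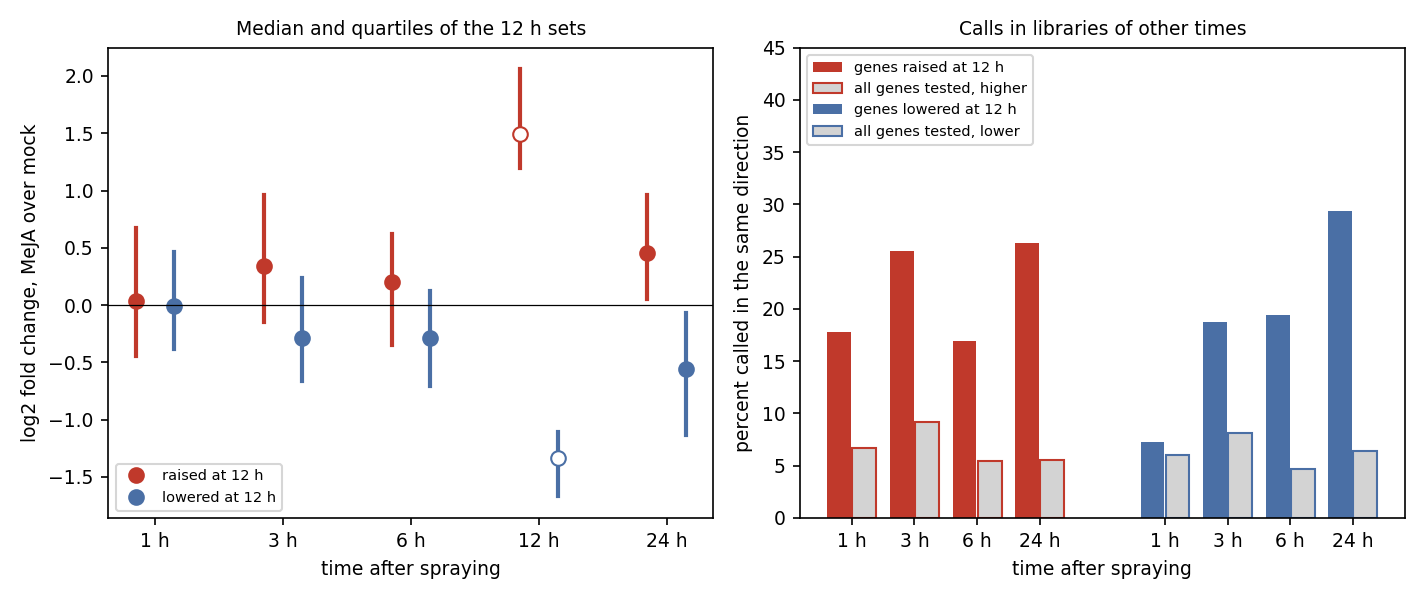
Left, median (points) and quartiles (lines) of the log2 fold change, MeJA over mock, of the 877 genes raised and the 428 lowered at 12 h, with open points at 12 h where the genes were chosen. Right, the percent of these genes called in the same direction at the other times (filled bars), beside the percent of all genes tested called in that direction (grey bars), with the highest values at 24 h (26.3% and 29.4%).

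Most raised and lowered genes had no gene of their own set numbered next to them, but more had one than over all pairs. The identifiers give a scaffold and a running number, and whether the number follows the order along the scaffold is not stated in the sources used here. Where a raised gene and the next number on its scaffold were both tested, the next one was raised too in 50 of 485 cases (10.3%), beside 4.41% over all 11045 such pairs, and lowered in 10 (2.06%, beside 2.19%). For lowered genes the next one was lowered in 23 of 254 cases (9.06%, beside 2.19%) and raised in 8 (3.15%, beside 4.41%). The longest runs held 3 genes, with 6 runs of 3 raised and 6 runs of 3 lowered genes. Without MeJA library 2 of 12 h the shares were 9.8% for raised genes (29 of 296, beside 2.72% over all pairs of that fit) and 9.5% for lowered genes (17 of 179, beside 1.57%). Reads shared between neighbouring copies of a gene were not checked.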

How the data were processed

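RNA-seq counts of pepper leaves were analysed. The authors trimmed the reads with Cutadapt 1.15 and Trimmomatic 0.38 (versions from the submitters' processing notes), mapped them with HISAT2 to the CM334 genome v.1.6 and counted them per gene with HTSeq 0.11.2. The deposited values are these counts, without normalization. The libraries were strand-specific, but the strand setting of the counting and the treatment of reads with several mapping places are not given in the sources used here, so overlapping genes and gene copies remain uncertain. Bukang reads were mapped to another cultivar, which may lower the counts of genes that differ between them. Each column was matched to 1 sample by its title.

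Genes were tested with edgeR 4.0.16 in R 4.3.3 (filterByExpr, TMM, glmQLFit and glmQLFTest). One fit took the 30 MeJA and mock libraries of 1 to 24 h, with 1 coefficient for each of 10 groups, and the contrast MeJA 12 h minus mock 12 h was adjusted by Benjamini-Hochberg over all genes tested. The other times, the differences between times and, in a fit of the 15 libraries of 12 h with 5 treatments, the hormones were tested likewise. SEs come from the F statistic. CPM of single genes, the shares of all counts taken by gene sets and the correlations of same-numbered libraries use total counts. Median levels of gene sets and the other comparisons between libraries use TMM-scaled CPM, with factors between 0.81 and 1.35. On simulated counts (17794 genes) the 12 h contrast recovered 50 of 50 genes at a log2 change of 2, 50 of 50 at -2, 46 of 50 at 1 and 38 of 50 at -1, with 7 others called. The simulation gave every gene the same spread and, apart from the changed genes, the same mean in all groups. It held no outlying library, so it checks the computation and gives no error rate for these data.

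Named genes were the 2 largest rises and the 2 largest falls with an adjusted p under 0.05, CPM ranges without overlap and a mean of at least 10 CPM in the higher group. The comparison, its lists and tests were chosen with earlier results of these data known. Alternatives were RLE scaling, DESeq2 1.42.0, other filters, the 6 libraries alone, a replicate block, equal depth, separate fits of 12 h and the other times, and leaving out libraries. Gene lists of jasmonate pathways, defence, photosynthesis and leaf markers could not be applied, since the identifiers carry no names.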

Additional observations from a re-analysis of the deposited data

Results flagged for a closer look

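The difference between MeJA and mock leaves changed between time points for part of the genes by a direct test. It was another one at 12 h than at 6 h for 1661 genes (9.05% of those tested). Against 24 h it was another one for 1252 genes (6.82%; edgeR, adjusted p under 0.05). Without MeJA library 2 of 12 h these counts were 1100 and 940. For CA.PGAv.1.6.scaffold1045.47 the log2 difference at 12 h exceeded that at 6 h by 6.85 ± 1.47 (SE, adjusted p = 0.00183, edgeR) and that at 24 h by 4.18 ± 1.04 (adjusted p = 0.00977, edgeR). For CA.PGAv.1.6.scaffold1628.3 it exceeded that at 6 h by 4.34 ± 0.91 (adjusted p = 0.00138, edgeR) and that at 24 h by 6.46 ± 0.84 (adjusted p = 8.85e-06, edgeR). For CA.PGAv.1.6.scaffold1186.22 the difference at 12 h minus that at 6 h was -7.31 ± 1.43 (adjusted p = 0.000697, edgeR), while against 24 h it did not pass (-4.09 ± 1.41, adjusted p = 0.077, edgeR). For CA.PGAv.1.6.scaffold895.36 neither passed, with -10.4 ± 3.5 against 6 h (adjusted p = 0.0577, edgeR) and -5.06 ± 2.25 against 24 h (adjusted p = 0.2, edgeR). These genes were picked for their change at 12 h, which favours such differences. Groups of 3 libraries were not tested for single outlying libraries. Single libraries led the 12 h values of these genes, MeJA library 2 for the rises and mock library 3 for the falls. Without MeJA library 2 the log2 fold changes at 12 h were 4.94 for CA.PGAv.1.6.scaffold1045.47 and 3.89 for CA.PGAv.1.6.scaffold1628.3. Without mock library 3 they were -2.95 for CA.PGAv.1.6.scaffold1186.22 and -5.33 for CA.PGAv.1.6.scaffold895.36.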

How the results depend on the processing

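RLE scaling, DESeq2, no filter, equal depth and the 6 libraries of 12 h alone kept the count of genes that differed at 12 h between 3593 and 4315, and the 2-fold count between 1112 and 1373. A minimum of 10 counts in every library lowered the 2-fold count to 650, and a test against a 2-fold change itself (glmTreat) to 255. With the same minimum, the 2-fold counts of the direct comparisons were 1099 with ABA (1881 otherwise), 991 with SA (1898) and 2081 with ET (3283). Leaving out single libraries gave 2630 to 4936 genes that differed and 820 to 1451 at least 2-fold, 1100 to 2116 genes that differed between 12 h and 6 h, 854 to 1637 between 12 h and 24 h, and 0 to 1 genes with 0 counts in mock leaves. The counts of 4936, 2116 and 1637 came from leaving out MeJA library 1 of 3 h. That fit and the fit without mock library 3 of 24 h were not planned. Leaving out single libraries of 12 h gave at most 4042, 1866 and 1237. Without MeJA library 2 and mock library 3 of 12 h together, chosen after the data were seen, 2218 genes differed, 810 at least 2-fold, and 1060 differed between 12 h and 6 h. A minimum of 3 counts gave 6 genes with 0 counts in mock leaves. The share of 2-fold genes called in the same direction at another time was 50.7% and stayed between 50.45% and 64.8%. In the main fit, 80.8% of all genes tested were called higher at no other time, and 80.5% were called lower at no other time. The 64.8% came from the minimum of 10 counts in every library. Matching shares of all genes were not computed for the other fits. The 4 named genes kept their direction and an adjusted p under 0.05 in every fit that tested them, but 3 of them dropped out with the minimum of 10 counts in every library. In the 6 libraries of 12 h alone their adjusted p was much larger than in the joint fit (edgeR). It was 0.00168 for CA.PGAv.1.6.scaffold1045.47, 0.0012 for CA.PGAv.1.6.scaffold1628.3, 0.00342 for CA.PGAv.1.6.scaffold895.36 and 0.00995 for CA.PGAv.1.6.scaffold1186.22.

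Same-numbered MeJA and mock libraries of 12 h did not deviate together (correlations of 0.0544, -0.0556 and -0.127), so the numbers were not read as pairs. At 3 h all these correlations were positive (0.083, 0.081 and 0.156). They were all negative at 1 h (-0.039, -0.019 and -0.014) and at 24 h (-0.109, -0.036 and -0.202), and mixed at 6 h (-0.042, 0.066 and 0.064). Under the replicate block 4261 genes differed, 1293 at least 2-fold, 1628 differed between 12 h and 6 h and 1216 between 12 h and 24 h.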
